A study of Homo sapiens with 12 samples.

Results

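In proliferating cells, the proteins that build the mitotic spindle, attach chromosomes to it and divide the cell are made mainly in G2 and M phase. The genes described here are 54 such genes, written as a list of symbols. They were all the rows with those symbols in the count table of each cell line, 54 of the 39368 symbols in each table. They fell into 10 roles, namely the spindle checkpoint (5 genes), mitotic kinases, cyclins and entry factors (8), the chromosomal passenger complex (4), the APC/C and sister separation (5), the centromere and kinetochore (8), kinesins (9), spindle microtubule proteins (6), cytokinesis (3), condensin and chromosome structure (5) and the transcription factor FOXM1.

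The question was how RNA of these genes responded to MUC1 silencing in squamous carcinoma cells of the head and neck (HNSCC). The established lines CAL27 and HSC3 are both HPV-negative, and the cells of all 4 groups carried a tet-inducible MUC1 shRNA (tet-MUC1shRNA) in the pLKO-tet-puro vector after puromycin selection. Each line was treated for 7 days with 500 ng/mL doxycycline (DOX), which turns on the shRNA, or with 0.1% DMSO as vehicle, and poly(A) RNA of 3 samples in each group, from cells grown in triplicate, was sequenced. No cells with a control shRNA and DOX were analysed here, so the effects of DOX itself and of the shRNA cannot be told apart.

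Mitosis is driven by CDK1 with its cyclins, while the spindle checkpoint holds back the anaphase-promoting complex (APC/C) until every kinetochore is attached to microtubules. In quiescent or early G1 cells many of these genes are kept silent by the DREAM complex at a promoter element called the cell cycle genes homology region (CHR), and in G2 the same element serves the MuvB, B-MYB and FOXM1 proteins. CCAAT boxes, bound by NF-Y, often lie upstream of it. Tumor cells that divide often carry high levels of these RNAs, and MKI67 among them is the usual marker of proliferation.

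The promoters of the members shared these elements, which the choice of the list did not use. RefSeq windows (GRCh38.p14, 250 bases before to 50 after each start site) were found for 46 of the 54 genes, and AURKA, BIRC5, BUB3, FOXM1, KNL1, TPX2, TTK and UBE2C had no entry. The CHR letters TTTGAA were found on either strand in 34 of the 46 windows (73.9%), against 15.2% of all 35116 promoters in the table and 12.4% of the 22198 of coding genes. The variant TTTAAA was present in 16 (34.8%, against 12.2% of all promoters and 10.2% of those of coding genes). CCAAT was present in 36 (78.3%, against 34.6% and 34.7%), and the E2F letters GCGGGA in 21 (45.7%, against 26.9% and 33.5%). TTTGAA or TTTAAA was present in 40 (87.0%, against 24.0% of all promoters and 20.2% of those of coding genes). Of the 44 TTTGAA matches, 33 in 29 genes began between 60 bases before and 50 bases after the start site, and nearly all CCAAT matches began upstream of the start site. Most of each window lies upstream by design, and the positions were not compared with those in all promoters. A match is a description of the letters and not of a bound site, and these windows say nothing about which factor acts there.

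**Figure D1:**
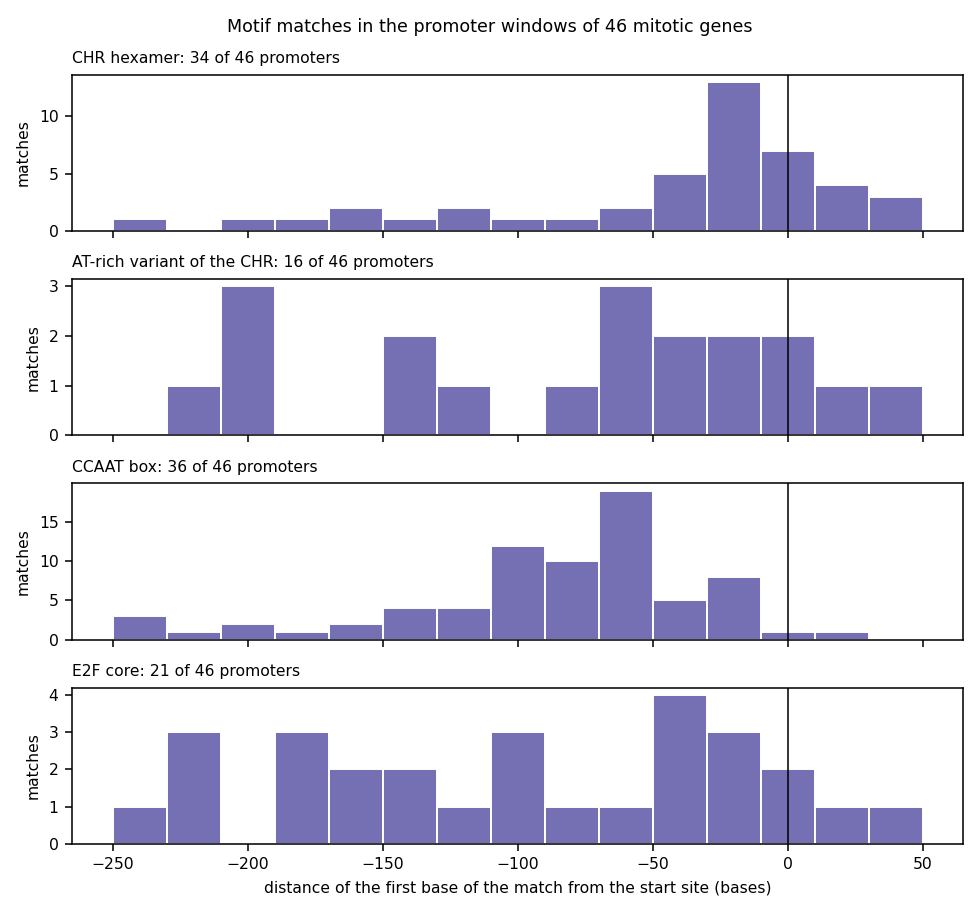
Distance from the start site (bases, x axis) of each motif match in the 46 promoter windows, as the number of matches (y axis) in steps of 20 bases, for the CHR hexamer, its AT-rich variant, the CCAAT box and the E2F core. The CHR hexamer was in 34 windows, with 33 of its 44 matches from 60 bases before to 50 bases after the start site, and the CCAAT box was in 36.

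The windows printed here are those of ANLN, with the largest called change in CAL27 cells, of SPC24, with the largest in HSC3 cells, and of INCENP and NUSAP1, which were called in neither line. PLK1 and CCNB2 were added after their motifs had been seen, as windows with CCAAT boxes upstream of a CHR. They are written 5′ to 3′ on the strand of the gene, in lower case, and the capitals mark the CHR (TTTGAA), its variant (TTTAAA), the CCAAT box and the E2F letters (GCGGGA), or the reverse complement of each. No marked match overlapped another.
ANLN (chr7:36389612-36389911, plus strand): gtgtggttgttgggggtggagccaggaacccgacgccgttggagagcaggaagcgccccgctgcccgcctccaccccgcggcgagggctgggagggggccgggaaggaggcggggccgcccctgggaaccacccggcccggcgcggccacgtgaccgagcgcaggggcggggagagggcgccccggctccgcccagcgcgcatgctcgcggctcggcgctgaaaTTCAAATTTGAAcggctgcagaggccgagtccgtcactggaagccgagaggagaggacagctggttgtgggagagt
SPC24 (chr19:11155733-11156032, minus strand): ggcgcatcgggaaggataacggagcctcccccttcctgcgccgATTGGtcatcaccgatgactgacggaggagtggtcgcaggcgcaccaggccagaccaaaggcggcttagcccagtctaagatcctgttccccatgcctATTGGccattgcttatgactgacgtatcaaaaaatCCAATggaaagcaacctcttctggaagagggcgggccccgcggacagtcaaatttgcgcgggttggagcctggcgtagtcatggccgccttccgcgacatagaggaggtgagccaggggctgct
INCENP (chr11:62123761-62124060, plus strand): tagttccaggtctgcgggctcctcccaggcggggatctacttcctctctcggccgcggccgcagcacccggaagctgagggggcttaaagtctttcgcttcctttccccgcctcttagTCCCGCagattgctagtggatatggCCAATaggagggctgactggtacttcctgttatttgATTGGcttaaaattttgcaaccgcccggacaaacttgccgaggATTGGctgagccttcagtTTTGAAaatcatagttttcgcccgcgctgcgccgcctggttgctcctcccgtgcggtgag
NUSAP1 (chr15:41332631-41332930, plus strand): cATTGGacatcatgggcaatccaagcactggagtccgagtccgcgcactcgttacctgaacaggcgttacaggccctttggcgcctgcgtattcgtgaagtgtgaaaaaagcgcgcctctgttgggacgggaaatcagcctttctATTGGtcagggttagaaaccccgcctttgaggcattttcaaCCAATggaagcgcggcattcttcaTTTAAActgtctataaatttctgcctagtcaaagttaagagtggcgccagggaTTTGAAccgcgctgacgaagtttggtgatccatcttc
PLK1 (chr16:23678639-23678938, plus strand): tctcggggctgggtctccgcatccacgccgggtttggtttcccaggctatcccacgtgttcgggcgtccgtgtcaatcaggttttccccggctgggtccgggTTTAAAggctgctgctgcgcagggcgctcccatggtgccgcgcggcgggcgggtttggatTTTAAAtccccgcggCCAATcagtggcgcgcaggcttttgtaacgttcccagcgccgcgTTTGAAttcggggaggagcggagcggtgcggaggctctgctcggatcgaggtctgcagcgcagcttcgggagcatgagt
CCNB2 (chr15:59104896-59105195, plus strand): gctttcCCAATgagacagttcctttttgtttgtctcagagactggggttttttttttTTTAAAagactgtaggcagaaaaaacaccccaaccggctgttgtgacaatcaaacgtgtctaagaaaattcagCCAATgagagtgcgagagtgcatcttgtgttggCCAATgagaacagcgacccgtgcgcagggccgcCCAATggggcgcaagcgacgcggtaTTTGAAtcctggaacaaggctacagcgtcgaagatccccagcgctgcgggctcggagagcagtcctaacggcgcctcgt
ANLN lies at chr7:36389821-36453791 (plus strand) and SPC24 at chr19:11131520-11155807 (minus strand) in the GENCODE annotation of GRCh38. The ANLN window held 2 abutting CHR matches on opposite strands and no CCAAT, and the SPC24 window held 3 CCAAT matches and no CHR. The INCENP window held 1 CHR and 3 CCAAT matches, as did that of NUSAP1, which had 1 TTTAAA in addition. PLK1 and CCNB2 each had 1 CHR match close to the start site, with 1 and 4 CCAAT matches upstream. Over the 34 genes with TTTGAA the log2 fold changes had a median of 0.17 for CAL27 and of -0.30 for HSC3, and over the 12 without it of 0.20 and -0.27.

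Depth was high in every library. Totals ran from 92866845 to 126328662 counts for CAL27 libraries, from 89730914 to 130393198 for HSC3 vehicle libraries and from 134231542 to 169065103 for HSC3 DOX libraries. The number of counts per RNA molecule was estimated from how often a gene expected at 8 to 16 counts had none. It came to 2.45 to 3.33 in CAL27 libraries, 4.18 to 7.43 in HSC3 vehicle libraries and 8.93 to 17.2 in HSC3 DOX libraries, the highest being DOX replicate 1, which also had the fewest genes with a count (19128). The expected count came from the other libraries of the group, so differences between replicates can raise the estimate too. Odd numbers made up only 22.1% to 35.7% of the low counts of a library, and the cause was not tested. MUC1 itself was at 60.9 CPM (counts scaled to the library total) with vehicle and 3.28 with DOX in CAL27 cells (edgeR log2 fold change -4.21, adjusted p = 1.6e-19). In HSC3 cells it was at 1.60 and 0.214 CPM (-2.88, edgeR adjusted p = 0.0002). MUC1 was thus low in HSC3 cells already with vehicle, and the size of its fall there is less certain. The part of this difference between the lines in the responses below was not tested. All 7 squamous epithelial markers were detected in both lines, and their summed level was 6943 to 7185 CPM with vehicle and 3421 to 3605 CPM with DOX for CAL27 and 6022 to 6596 and 2969 to 3414 CPM for HSC3. KRT5 had the most counts of them in every library, and the markers did not fall evenly. By edgeR 6 fell in CAL27 cells (log2 fold changes of all 7 from -2.9 to 0.02) and 5 in HSC3 cells (from -1.88 to -0.09). Of all genes tested, 21.8% and 15.4% were called lower. Leukocyte markers summed to at most 0.637 CPM in any library, fibroblast markers to at most 12.9 and endothelial markers to at most 16.9. These marker sums are scaled to the library totals alone. The part of the lower squamous marker level in the responses below was not tested.

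Levels of the genes ranged widely. Per length, as CPM per kilobase of exon in vehicle-treated cells, CCNB1, the cyclin that activates CDK1, was first in both lines (141 in CAL27 and 92.7 in HSC3 cells). It was followed in CAL27 cells by ANLN (139), TOP2A (137), MKI67 (135) and UBE2C (130), and in HSC3 cells by TOP2A (83.2), MKI67 (71.3), TPX2 (69.0) and ANLN (65.4). At the low end CDC25C stood at 4.92 and 2.54. The neighbours CCNB1 and ANLN in CAL27 cells lay within the spread of the libraries, since the CCNB1 level varied from 332.9 to 355.8 CPM. NUSAP1 and PRC1 were nearly without counts (at most 0.718 and 1.55 CPM in any library). Of their exons, 86.8% and 57.6% lay under other genes of the same strand, and 34.3% of those of PRC1 lay under an antisense gene, so their counts are uncertain. They are kept among the 54 genes, and without them the medians were 0.17 and -0.30.

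In CAL27 cells, DOX treatment was followed by small increases over most of the list. By edgeR, 37 of the 54 genes rose at an adjusted p under 0.05 over all 19239 genes tested, 2 fell (CDC25C and ASPM) and 15 were not called. Of all genes tested, 22.6% were called higher and 21.8% lower. The log2 fold changes ran from -0.22 to 0.65 with a median of 0.18, against -0.00522 over all genes, and 47 of the 54 were above 0. In 41 genes all DOX libraries lay above the range of the vehicle libraries, which was so for 26.0% of all genes. The largest change was thus under a fold change of 2, the size that 6.42% of all genes passed in either direction by edgeR. In 1 fit over all 12 libraries, where the lines share their estimate of the spread, 14 of these 39 calls were lost with their direction kept (adjusted p of 0.052 to 0.4). The genes were MAD2L1, PLK1, CCNA2, CDK1, CDC25C, CDCA3, NDC80, NUF2, KIF15, KIF18A, ASPM, DLGAP5, PRC1 and ECT2.

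In HSC3 cells the same treatment was followed by decreases. Of the 54 genes, 33 fell, 21 were not called and 0 rose by edgeR, with 0 higher at an unadjusted p under 0.05 and 0 higher by DESeq2. Of all 18021 genes tested, 15.4% were called lower and 13.0% higher. The log2 fold changes ran from -1.06 to 0.08 with a median of -0.30, against -0.00973 over all genes, and 52 of the 54 were below 0. In 39 genes all DOX libraries lay below the range of the vehicle libraries, against 22.8% of all genes. SPC24, a subunit of the NDC80 complex, was the 1 gene past a fold change of 2, which 5.98% of all genes passed in either direction. BUB1B, AURKA, AURKB, INCENP, KIF4A and ANLN were called lower in addition in 1 fit over all 12 libraries (adjusted p of 0.0075 to 0.05, rounded), and with DESeq2's size factors in edgeR the calls of KNL1 and KIF20B were lost (0.07 and 0.076). In RNA from whole cultures, fewer cells in G2 or M phase and less of these RNAs per cell cannot be told apart.

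The difference between the lines was itself tested, as the interaction of line and DOX in a fit of all 12 libraries. The response was lower in HSC3 than in CAL27 cells in all 54 genes by sign, and 47 of these differences were called by edgeR, against 12.3% of all 20694 genes tested. The difference had a median of -0.52 on the log2 scale, against -0.0224 over all genes. CDK1, CDC25C, INCENP, SGO1, NUF2, NUSAP1 and PRC1 were not called. SGO1 and NUF2 passed with library totals (adjusted p = 0.032 and 0.039), by DESeq2 (0.043 and 0.046) and with counts divided by counts per molecule (0.013 and 0.017). The differences of KIF18A and SMC4 were lost with DESeq2's size factors in edgeR (0.066 for each). Called higher in CAL27 and lower in HSC3 cells were 19 of the 54 genes, against 2.37% of the 17164 genes tested in both lines. These were BUB1, MAD2L1, PLK1, CCNB1, CDCA3, CDCA8, CDC20, CENPE, CENPF, NDC80, KNL1, KIF20B, KIF15, TPX2, DLGAP5, ECT2, NCAPH, MKI67 and FOXM1. Called lower in both lines was 1 gene, ASPM, against 8.62% of all genes.

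**Figure D2:**
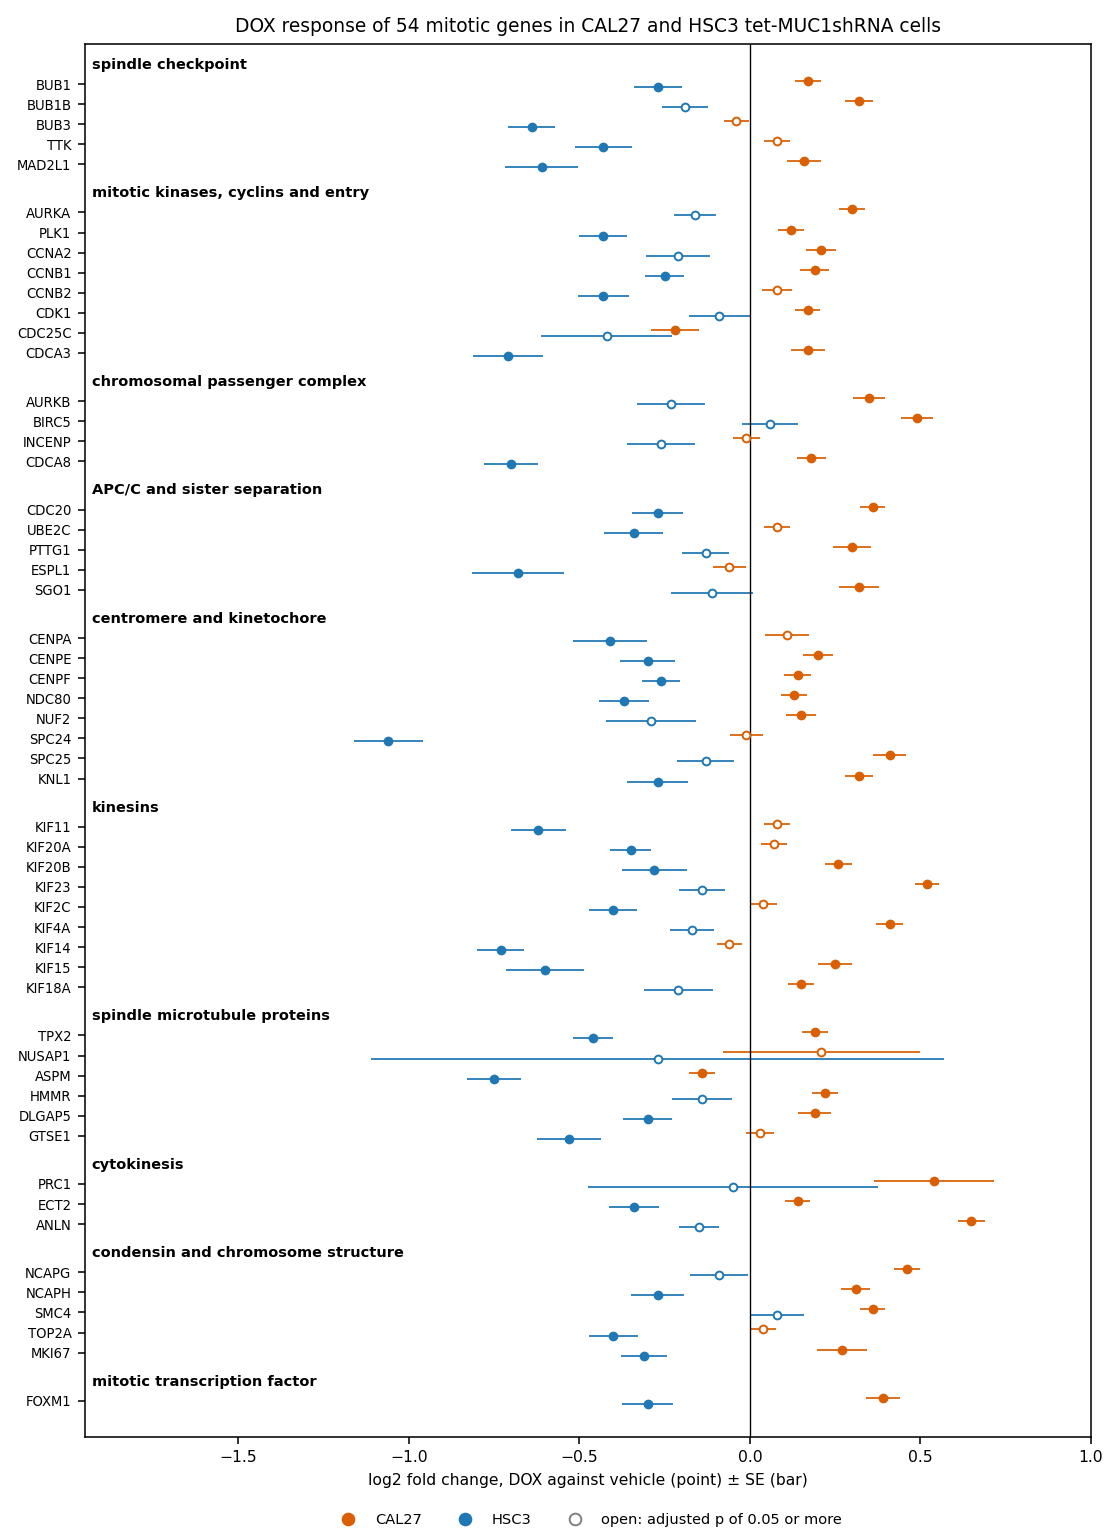
Log2 fold change of DOX against vehicle (x axis, point) with its SE (bar, 3 libraries against 3) for the 54 genes by role (y axis), in CAL27 cells (orange) and HSC3 cells (blue), with filled points for an adjusted p under 0.05. Filled orange points lay right of 0 for 37 genes and left of it for 2, and filled blue points lay left of 0 for 33 and right of it for 0.

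The responses kept an order across the lines although their signs differed. Over the 52 genes without NUSAP1 and PRC1, the log2 fold changes of the lines correlated with a Pearson r of 0.67 and a Spearman rho of 0.74, given as a description since all genes of a line share its libraries. Whether other genes correlated as much between the lines was not tested. Genes that rose most in CAL27 cells, such as ANLN, KIF23, BIRC5 and NCAPG, were among those nearest to 0 in HSC3 cells. Some genes near 0 in CAL27 cells, such as SPC24, KIF14, ESPL1 and BUB3, were among the lowest in HSC3 cells. Others as near 0 in CAL27 cells were not, such as INCENP (-0.01 and -0.26), TOP2A (0.04 and -0.40) and KIF2C (0.04 and -0.40).

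**Figure D3:**
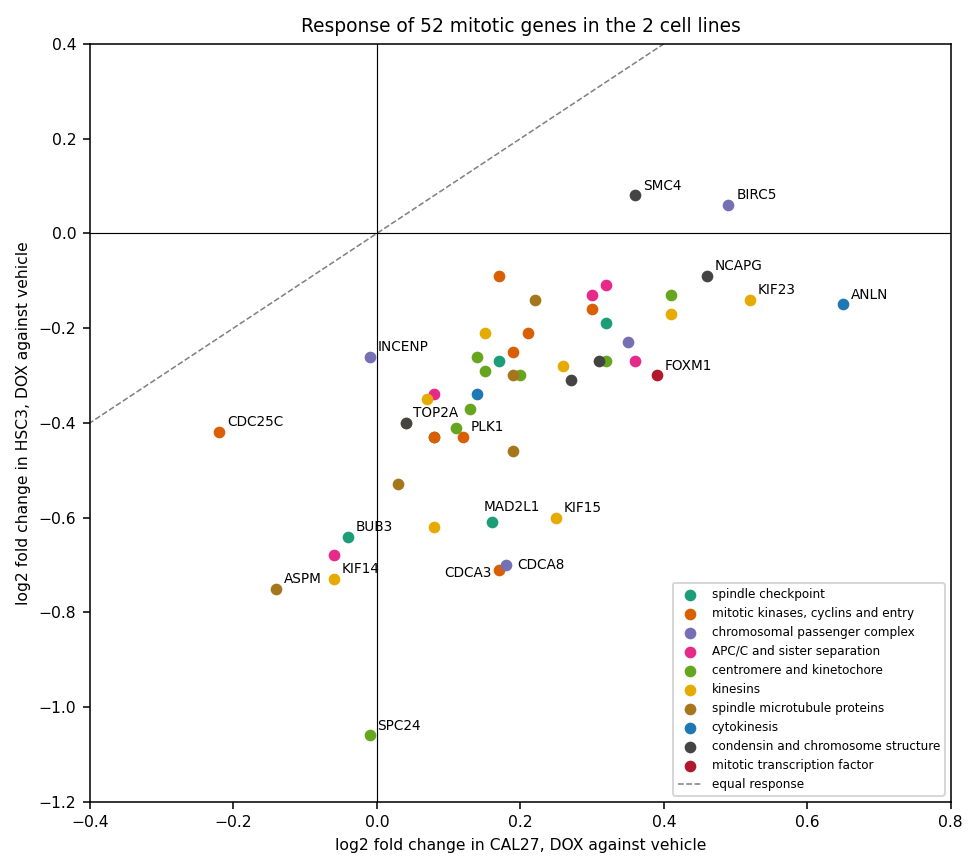
Log2 fold change of DOX against vehicle in CAL27 cells (x axis) and HSC3 cells (y axis) for 52 genes, coloured by role, with the line of equal response dashed. Every point lay below the dashed line, with ANLN (0.65 and -0.15) farthest right and SPC24 (-0.01 and -1.06) lowest.

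The spindle checkpoint genes encode proteins that sense unattached kinetochores and form the inhibitor of the APC/C. In CAL27 cells 3 of the 5 rose (BUB1, BUB1B and MAD2L1, log2 fold changes 0.17, 0.32 and 0.16), and in HSC3 cells 4 fell (BUB1, BUB3, TTK and MAD2L1, -0.27, -0.64, -0.43 and -0.61). BUB1, a kinase that marks the centromere for shugoshin, was at 137.7, 132.9 and 132.7 CPM with vehicle and 152.9, 147.1 and 152.4 CPM with DOX in CAL27 cells. Its HSC3 levels were 99.8, 99.1 and 107.9 CPM with vehicle and 89.1, 79.3 and 85.2 CPM with DOX. The groups did not overlap in either line, and the mean rose by 12.1% in CAL27 cells (134.5 ± 2.85 to 150.8 ± 3.23 CPM, SD, n = 3) and fell by 17.3% in HSC3 cells (102.3 ± 4.91 to 84.5 ± 4.95 CPM). BUB3, which carries BUB1 and BUBR1 to kinetochores, was at 209.4 and 203.2 CPM on average in CAL27 cells, where the groups overlapped (log2 fold change -0.04, 95% interval of ± 1.96 SE from -0.12 to 0.03). It fell from 280.0, 274.1 and 288.9 CPM to 196.0, 176.6 and 167.4 CPM in HSC3 cells. All 5 differences between the lines were called, from -0.44 (BUB1) to -0.77 (MAD2L1, the MAD2 protein that binds CDC20). The call of MAD2L1 in CAL27 cells was lost without vehicle replicate 2 (edgeR adjusted p = 0.061), vehicle replicate 3 (0.097) or the DOX library of column 4 (0.052), and that of BUB1 in HSC3 cells without vehicle replicate 3 (0.074). BUB1B, at -0.19 in HSC3 cells and not called, passed without DOX replicate 1 (0.027), and TTK in CAL27 cells without the DOX library of column 6 (0.034).

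Among the mitotic kinases, cyclins and entry factors, 6 of 8 rose in CAL27 cells (AURKA, PLK1, CCNA2, CCNB1, CDK1 and CDCA3), CDC25C fell, and 4 fell in HSC3 cells (PLK1, CCNB1, CCNB2 and CDCA3). CDK1, the kinase that drives entry into mitosis, rose in CAL27 cells from 133.6, 133.1 and 135.1 CPM to 151.7, 152.5 and 148.5 CPM (log2 fold change 0.17, edgeR adjusted p = 0.0006, and 0.12 in 1 fit over all 12 libraries). In HSC3 cells CDK1 was at 141.3, 136.8 and 142.1 CPM with vehicle and at 153.0, 120.4 and 121.8 CPM with DOX. These groups overlapped, because DOX replicate 1 lay above and the other DOX libraries below every vehicle library (log2 fold change -0.09, interval from -0.26 to 0.09), and without that replicate CDK1 was called lower (-0.21, edgeR adjusted p = 0.002). CCNB1 rose from 355.8, 343.7 and 332.9 to 410.2, 393.4 and 373.6 CPM in CAL27 cells and fell from 231.5, 219.2 and 225.7 to 193.1, 183.5 and 190.8 CPM in HSC3 cells, with no overlap in either line. PLK1, a kinase of centrosome maturation and spindle assembly, differed between the lines by -0.54 ± 0.0715 on the log2 scale (SE, edgeR adjusted p = 6.7e-05). It was at 165.6, 163.7 and 156.0 CPM with vehicle and 177.0, 172.7 and 176.2 CPM with DOX in CAL27 cells. Its HSC3 levels were 53.8, 58.6 and 58.3 CPM and 41.4, 42.5 and 42.9 CPM. The DOX libraries of PLK1 lay above the vehicle range by little in CAL27 cells and well below it in HSC3 cells.

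CDCA3, a factor linked to the destruction of the mitosis inhibitor WEE1, was among the genes with the largest difference (-0.88 ± 0.0988, SE). It went from 28.0, 29.2 and 27.5 to 32.5, 31.3 and 31.4 CPM in CAL27 cells and from 16.3, 17.0 and 16.1 to 9.30, 10.1 and 10.7 CPM in HSC3 cells, where the mean fell by 39.0%. CDC25C, the phosphatase that activates CDK1, fell in CAL27 cells from 16.6, 16.0 and 16.5 to 15.1, 14.4 and 12.7 CPM (log2 fold change -0.22), and this call was lost without the DOX library of column 6 (edgeR adjusted p = 0.059) and in 1 fit over all 12 libraries (0.39). In HSC3 cells CDC25C was at 8.58, 8.35 and 8.40 CPM with vehicle and 7.17, 7.48 and 4.23 CPM with DOX, below the vehicle range but not called (-0.42 ± 0.193, SE). Its difference between the lines was not called either (-0.20, adjusted p = 0.62). In CAL27 cells the call of PLK1 was lost without vehicle replicate 2 (0.074), vehicle replicate 3 (0.17) or the DOX library of column 4 (0.054), that of CDCA3 without vehicle replicate 3 (0.065), and CCNB2 passed without the DOX library of column 6 (0.0058). In HSC3 cells AURKA, CCNA2 and CDC25C passed without DOX replicate 1 (0.02, 3.4e-05 and 0.024). The difference of CCNA2 (-0.41, adjusted p = 0.024) was lost without CAL27 vehicle replicate 2 or 3, the CAL27 DOX library of column 4, or HSC3 vehicle replicate 1 or 2, at 0.053 to 0.083.

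The chromosomal passenger complex corrects faulty attachments through the kinase AURKB, with INCENP as its scaffold and BIRC5 (survivin) and CDCA8 (borealin) as its targeting subunits. Its subunits did not move alike. AURKB, BIRC5 and CDCA8 rose in CAL27 cells, and CDCA8 alone of the 4 was called in HSC3 cells, where it fell. BIRC5 was at 88.7, 85.2 and 87.1 CPM with vehicle and 130.2, 122.5 and 112.6 CPM with DOX in CAL27 cells, with no overlap (log2 fold change 0.49 ± 0.047, SE, edgeR adjusted p = 5.7e-08). The HSC3 libraries had 42.8, 46.1 and 43.6 CPM and 42.4, 50.1 and 46.0 CPM, in overlapping groups (0.06, interval from -0.10 to 0.23). CDCA8 rose from 77.1, 78.0 and 75.8 to 91.7, 86.8 and 82.6 CPM in CAL27 cells and fell from 48.8, 50.3 and 53.2 to 30.6, 33.6 and 29.7 CPM in HSC3 cells. Its groups were apart in both lines, and its difference was -0.87 ± 0.0866 (SE, adjusted p = 5.2e-06). AURKB rose from 58.4, 58.2 and 56.0 to 78.8, 71.4 and 69.6 CPM in CAL27 cells. The HSC3 libraries had 46.9, 45.0 and 39.7 CPM and 33.5, 42.0 and 37.1 CPM, overlapping and not called (-0.23), and it passed without DOX replicate 2 (edgeR adjusted p = 0.044). INCENP was at -0.01 (interval from -0.09 to 0.06) in CAL27 cells and at -0.26 (from -0.46 to -0.07, adjusted p = 0.074) in HSC3 cells. The HSC3 value passed under 4 of the 13 alternatives, which were no filter on low counts (0.041), DESeq2 (0.049), counts divided by counts per molecule (0.046) and 1 fit over all 12 libraries (0.017).

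**Figure D4:**
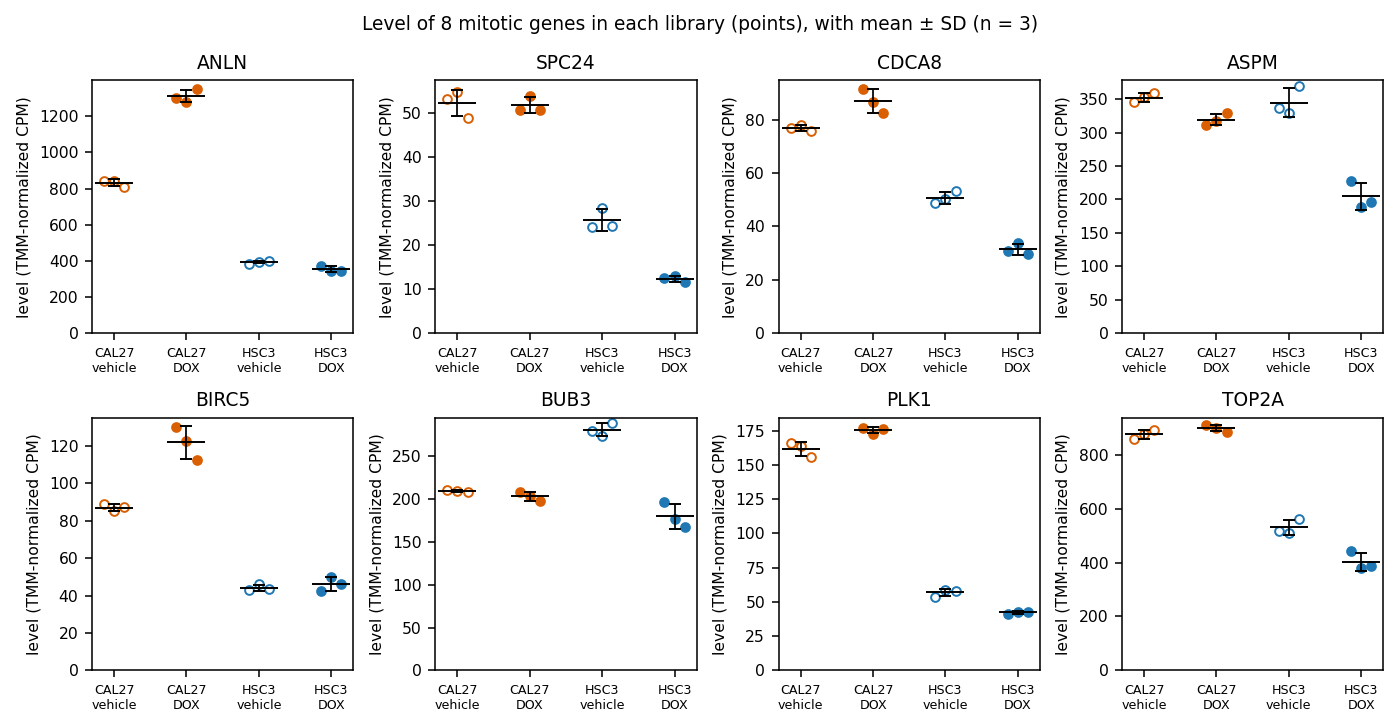
Level in TMM-normalized CPM (y axis, from 0) of 8 genes in each library (points) of the 4 groups (x axis), with the mean and SD of 3 libraries. ANLN and BIRC5 rose in CAL27 cells, SPC24, BUB3 and TOP2A fell in HSC3 cells without a call in CAL27 cells, CDCA8 and PLK1 moved in opposite directions and ASPM fell in both.

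Of the genes of the APC/C and sister separation, CDC20, PTTG1 and SGO1 rose in CAL27 cells (0.36, 0.30 and 0.32), and CDC20, UBE2C and ESPL1 fell in HSC3 cells (-0.27, -0.34 and -0.68). CDC20 activates the APC/C and UBE2C hands it ubiquitin. PTTG1 (securin) holds ESPL1 (separase) inactive until anaphase, and SGO1 guards centromeric cohesin. Securin and separase thus gave values of 0.30 and -0.06 in CAL27 cells and of -0.13 and -0.68 in HSC3 cells. All but SGO1 (-0.42, adjusted p = 0.053 by edgeR) differed between the lines. Of the HSC3 calls, that of CDC20 was lost without any 1 of the vehicle replicates or without DOX replicate 3 (0.056 to 0.1), and that of UBE2C without vehicle replicate 2 (0.08) or 3 (0.061). Without DOX replicate 1, SGO1 passed in HSC3 cells (0.018) and in the difference (0.00021).

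At the centromere and kinetochore, 6 of 8 genes rose in CAL27 cells and 6 of 8 fell in HSC3 cells, with 4 in both counts (CENPE, CENPF, NDC80 and KNL1). The NDC80 complex, the main microtubule coupler of the kinetochore, has the subunits NDC80, NUF2, SPC24 and SPC25, and in CAL27 cells these gave log2 fold changes of 0.13, 0.15, -0.01 and 0.41. In HSC3 cells they gave -0.37, -0.29, -1.06 and -0.13. SPC24 was at 53.2, 54.7 and 48.9 CPM with vehicle and 50.7, 53.8 and 50.7 CPM with DOX in CAL27 cells, in overlapping groups (interval from -0.11 to 0.08). In HSC3 cells it fell from 24.1, 28.4 and 24.4 CPM to 12.6, 12.9 and 11.5 CPM (25.6 ± 2.45 to 12.3 ± 0.709 CPM, SD, n = 3; log2 fold change -1.06 ± 0.102, SE, edgeR adjusted p = 2.4e-05). Its difference between the lines, -1.04 ± 0.109 (SE), was the largest of the 54. NDC80 rose from 132.6, 133.6 and 134.6 to 150.9, 143.1 and 143.8 CPM in CAL27 cells and fell from 60.2, 57.5 and 63.6 to 49.3, 46.2 and 45.1 CPM in HSC3 cells. All DOX libraries of NDC80 were outside the vehicle range in both lines. CENPA, the histone H3 variant of centromeres, was called in HSC3 cells alone (-0.41), and its difference between the lines was called (-0.53).

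Several kinetochore calls were lost when 1 library was left out, any of several in most cases, while the fold changes kept their direction. Over all alternatives the log2 fold change ran from 0.10 to 0.14 for NDC80 and from 0.11 to 0.15 for CENPF in CAL27 cells, and from -0.39 to -0.26 for CENPE and from -0.38 to -0.20 for KNL1 in HSC3 cells. In CAL27 cells the call of NDC80 was lost without vehicle replicate 2 (edgeR adjusted p = 0.059) or the DOX library of column 4 (0.058), that of NUF2 without vehicle replicate 3 (0.05), and that of CENPF, a large protein of the outer kinetochore, without vehicle replicate 1 (0.064), vehicle replicate 2 (0.051) or the DOX library of column 5 (0.057). CENPA passed there without the DOX library of column 6 (0.0016). In HSC3 cells CENPE, the kinesin that carries chromosomes to the spindle equator, was lost without vehicle replicate 3 (0.083), DOX replicate 2 (0.051) or DOX replicate 3 (0.07). CENPA was lost without vehicle replicate 1 (0.078), vehicle replicate 2 (0.053) or DOX replicate 3 (0.056), and KNL1, the scaffold for BUB1, without any 1 vehicle replicate or DOX replicate 2 or 3 (0.085 to 0.17) and with DESeq2's size factors in edgeR (0.07). NUF2 passed in HSC3 cells without DOX replicate 1 (0.00019), and its difference between the lines without that library (0.00023) or HSC3 vehicle replicate 1 (0.039).

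Kinesins are the motors of the spindle. In CAL27 cells 5 of 9 rose (KIF20B, KIF23, KIF4A, KIF15 and KIF18A), in HSC3 cells 6 of 9 fell (KIF11, KIF20A, KIF20B, KIF2C, KIF14 and KIF15), and all 9 differences were called, from -0.36 (KIF18A) to -0.85 (KIF15). KIF23 (MKLP1), the motor of the centralspindlin complex at the midzone, was at 186.8, 187.4 and 182.3 CPM with vehicle and 267.6, 264.9 and 266.8 CPM with DOX in CAL27 cells. The HSC3 libraries had 96.8, 101.4 and 107.9 CPM and 97.8, 90.0 and 90.1 CPM, in overlapping groups (-0.14, interval from -0.27 to -0.01). KIF4A, which works with PRC1 at the midzone, gave 0.41 and -0.17.

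KIF14, a motor that recruits citron kinase in cytokinesis, was at 146.2, 151.4 and 153.6 CPM with vehicle and 144.6, 144.5 and 144.3 CPM with DOX in CAL27 cells, a change of -0.06 that was not called. In HSC3 cells KIF14 fell from 146.1, 146.5 and 163.9 to 96.1, 88.5 and 91.0 CPM (-0.73 ± 0.0688, SE). KIF15 and KIF11 (Eg5), the motors that push the spindle poles apart, both fell in HSC3 cells (-0.60 and -0.62). KIF15 rose in CAL27 cells from 26.7, 28.7 and 28.3 to 33.6, 32.5 and 33.6 CPM, a call lost in 1 fit over all 12 libraries (edgeR adjusted p = 0.052), and in HSC3 cells it went from 25.1, 25.4 and 29.7 to 19.6, 18.0 and 15.3 CPM. KIF11 was at 0.08 in CAL27 cells and passed there without the DOX library of column 6 (edgeR adjusted p = 0.0061). The HSC3 call of KIF20B, at an adjusted p of 0.05 when rounded, was lost without any 1 vehicle replicate or DOX replicate 2 or 3 (0.085 to 0.19), with DESeq2's size factors in edgeR (0.076) and with the replicate number as a block (0.067). KIF18A, KIF23 and KIF4A passed in HSC3 cells without DOX replicate 1 (0.00012, 0.016 and 0.047), and the difference of KIF18A (adjusted p = 0.047) was lost on leaving out any library but that one (0.064 to 0.14).

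Of the spindle microtubule proteins, TPX2, HMMR and DLGAP5 rose in CAL27 cells (0.19, 0.22 and 0.19), and TPX2, ASPM, DLGAP5 and GTSE1 fell in HSC3 cells (-0.46, -0.75, -0.30 and -0.53). TPX2 activates AURKA on the spindle and DLGAP5 (HURP) stabilizes kinetochore fibres. ASPM, which focuses the spindle poles and is mutated in a form of microcephaly, fell in both lines. It was at 345.9, 353.1 and 359.1 CPM with vehicle and 312.3, 317.3 and 329.2 CPM with DOX in CAL27 cells (-0.14 ± 0.0377, SE, edgeR adjusted p = 0.004, and 0.16 in 1 fit over all 12 libraries). Its HSC3 levels were 336.5, 329.7 and 369.3 CPM and 228.2, 189.3 and 196.2 CPM (-0.75 ± 0.08, SE). Its groups were apart in both lines, and the difference between the lines was -0.61 on the log2 scale (adjusted p = 0.00028). NUSAP1 had too few counts for a statement, with intervals from -0.36 to 0.77 and from -1.91 to 1.38. In HSC3 cells the call of DLGAP5 was lost without vehicle replicate 2 (0.055) or 3 (0.052), and HMMR passed without DOX replicate 1 (0.014). The difference of HMMR (-0.36) was lost without the CAL27 DOX library of column 4 (0.051) or HSC3 vehicle replicate 3 (0.055).

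The 3 cytokinesis genes all rose in CAL27 cells, and ECT2 alone fell in HSC3 cells. ANLN (anillin), the scaffold of the contractile ring, had the largest change of the 54 genes in CAL27 cells. It went from 844.4, 843.9 and 810.2 CPM to 1302.7, 1281.5 and 1348.7 CPM, a mean of 832.8 ± 19.6 against 1311.0 ± 34.4 (SD, n = 3), 57.4% higher (log2 fold change 0.65 ± 0.0395, SE, edgeR adjusted p = 4.7e-11). In HSC3 cells ANLN was at 384.3, 395.2 and 397.1 CPM with vehicle and 372.4, 342.5 and 342.9 CPM with DOX. These groups did not overlap either, but the change (-0.15) was not called (adjusted p = 0.075), and it passed without DOX replicate 1 (0.002). The difference of ANLN between the lines was -0.81. ECT2, which activates RhoA at the equator, gave 0.14 in CAL27 cells, lost without vehicle replicate 2 (0.061) or 3 (0.055), and -0.34 in HSC3 cells. PRC1, which bundles midzone microtubules, was at 0.935, 1.04 and 1.01 CPM with vehicle and 1.55, 1.43 and 1.38 CPM with DOX in CAL27 cells. Its call (0.54 ± 0.176, SE) was lost without vehicle replicate 1 (0.067), and its counts are those under overlapping genes given above.

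Condensin compacts mitotic chromosomes, TOP2A disentangles them and the Ki-67 protein of MKI67 coats them. Of these 5 genes, NCAPG, NCAPH, SMC4 and MKI67 rose in CAL27 cells, NCAPH, TOP2A and MKI67 fell in HSC3 cells, and all 5 differences were called, from -0.28 (SMC4) to -0.59 (NCAPH). NCAPG rose from 93.9, 91.1 and 89.7 to 123.9, 127.0 and 127.5 CPM in CAL27 cells and was at 98.1, 94.4 and 98.4 and at 104.1, 84.4 and 85.3 CPM in HSC3 cells. Of its exons 33.7% lay under an antisense gene, and for SMC4, at 0.36 and 0.08, that share was 22.0%. TOP2A was at 857.8, 876.9 and 892.0 CPM with vehicle and 908.6, 900.6 and 884.9 CPM with DOX in CAL27 cells, in overlapping groups (0.04, interval from -0.04 to 0.11). It fell from 518.4, 510.1 and 561.8 to 441.4, 378.2 and 386.0 CPM in HSC3 cells (-0.40 ± 0.0727, SE). MKI67 rose from 1711.4, 1761.8 and 1721.5 to 1841.8, 2073.7 and 2350.0 CPM in CAL27 cells and fell from 904.1, 906.6 and 935.3 to 675.3, 751.8 and 788.9 CPM in HSC3 cells. Its DOX libraries were outside the vehicle range in both lines and spread more widely than the vehicle libraries (SD 254.4 against 26.7 CPM in CAL27 cells). The CAL27 call of MKI67 was lost without vehicle replicate 1 (edgeR adjusted p = 0.086) or 3 (0.064), and the HSC3 call of NCAPH without vehicle replicate 2 (0.07) or 3 (0.11) or DOX replicate 2 (0.078) or 3 (0.065). NCAPG passed in HSC3 cells without DOX replicate 1 (0.0069), and the difference of SMC4 (adjusted p = 0.042) was lost on leaving out any library but that one (0.063 to 0.14).

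FOXM1, the transcription factor that acts on many of these promoters in G2, rose in CAL27 cells and fell in HSC3 cells. It was at 184.1, 178.4 and 166.0 CPM with vehicle and 219.2, 223.6 and 248.7 CPM with DOX in CAL27 cells (0.39 ± 0.0494, SE). In HSC3 cells it was at 166.0, 169.8 and 167.7 CPM and 121.2, 143.8 and 144.1 CPM (-0.30 ± 0.074, SE), and this call was lost without vehicle replicate 2 (edgeR adjusted p = 0.053). The difference was -0.69. Of its exons 15.9% lay under an antisense gene, and that share was 12.8% for PLK1 and 11.3% for CDCA3.

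**Figure D5:**
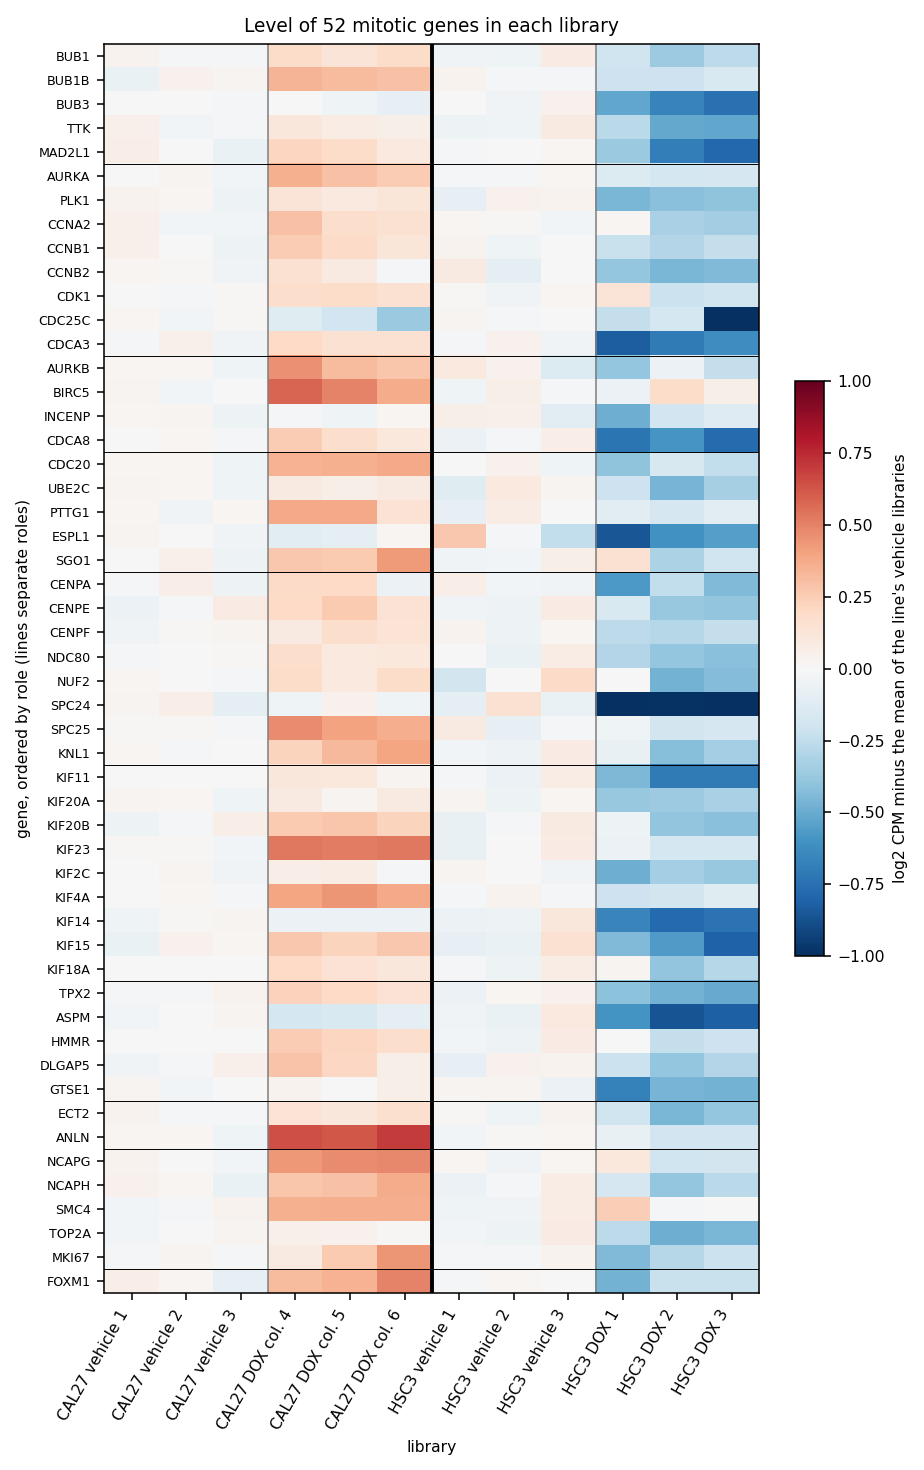
Log2 CPM in each of the 12 libraries (x axis) minus the mean of the line's vehicle libraries, for 52 genes ordered by role (y axis), with red for higher and blue for lower and colours capped at 1 in either direction. The median over the genes was 0.201, 0.19 and 0.148 in the CAL27 DOX libraries and -0.263, -0.365 and -0.326 in the HSC3 DOX libraries, of which replicate 1 was the palest for many genes.

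The shift was seen in each library. Over the 54 genes, the median log2 level against the mean of the line's vehicle libraries was 0.201, 0.19 and 0.148 in the DOX libraries of CAL27 cells, with 46 to 48 genes above that mean in each. In HSC3 cells it was -0.263, -0.365 and -0.326, with 47 to 52 genes below it. HSC3 DOX replicate 1, with the most counts per molecule, was the highest DOX library in 33 of the 54 genes. The fall was as large without it, with a median of -0.342 and 46 genes called lower. The 13 genes added were ANLN, AURKA, BUB1B, CCNA2, CDC25C, CDK1, HMMR, KIF18A, KIF23, KIF4A, NCAPG, NUF2 and SGO1. More of all genes were called lower too, 3601 of 18697 tested without that library against 2782 of 18021 with it. With every count divided by the counts per molecule of its library, 37 genes rose in CAL27 cells and 35 fell in HSC3 cells. Of all genes tested in those fits, 4223 of 16689 rose in CAL27 cells and 2983 of 13612 fell in HSC3 cells.

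Genes of related lists, 119 genes that share no member with the 54, moved less evenly. The lists were not limited to genes made mainly in G2 and M phase, and they include KIF5B, KIF1B, RHOA and CHMP4B. In CAL27 cells 69 rose and 14 fell (median log2 fold change 0.15), in HSC3 cells 4 rose and 41 fell (-0.20), and 66 differences were called lower in HSC3 cells and 2 higher (median -0.39). Of all genes tested, 22.6% rose and 21.8% fell in CAL27 cells, and 13.0% rose and 15.4% fell in HSC3 cells. For differences, 12.3% of all genes were called lower in HSC3 cells. The 30 other kinetochore genes gave 18 higher and 1 lower in CAL27 cells and 12 lower in HSC3 cells, with medians of 0.22 and -0.30. The 22 other kinesins and spindle proteins gave medians of 0.14 and -0.21, the 15 other condensin and cohesin genes 0.12 and -0.23, and the 10 other cytokinesis genes 0.20 and -0.18. The 18 APC/C subunits and regulators, many of which are made throughout the cycle, gave medians of 0.08 and -0.02, with 5 differences called. Only 3 of these 18 fell in HSC3 cells, near the share of all genes, and 2 rose. The 12 genes of MuvB and DREAM gave 0.01 and -0.10, and among them RBL1 (p107), a pocket protein of DREAM, fell in HSC3 cells from 109.1 to 31.6 CPM (-1.79 ± 0.0797, SE, edgeR adjusted p = 1.6e-07). RBL1 was called lower in CAL27 cells too (-0.40, edgeR adjusted p = 8.3e-08). The 12 entry regulators gave 0.17 and -0.21, and among them CDC25A, the phosphatase that acts on CDK2 and CDK1, rose in CAL27 cells from 13.2 to 32.4 CPM (1.29 ± 0.0602, SE, adjusted p = 9.6e-13). RBL1 and CDC25A were the 2 of the 119 genes past a fold change of 2 in a line.

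Genes of DNA replication, the S phase part of the same program, moved in the same directions as the mitotic genes. Of 38, 30 rose in CAL27 cells (median 0.29), 29 fell in HSC3 cells (median -0.41), and 35 differences were called lower in HSC3 cells (median -0.70), by edgeR. The shares of all genes tested were 22.6%, 15.4% and 12.3%. CLSPN (claspin), a checkpoint adaptor of the replication fork, fell in HSC3 cells from 86.3 to 38.5 CPM and was the 1 of these genes past a fold change of 2. Whether the lists differ in size of response was not tested.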

How the data were processed

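Poly(A) RNA of 12 samples, 3 in each of 4 groups (CAL27 and HSC3 cells with vehicle or DOX), was sequenced from TruSeq Stranded mRNA libraries. The authors deposited 1 table of raw counts for each line, with whole-number counts per gene symbol and no normalization. Per the labels' processing notes, FastQC 0.11.9, STAR 2.7.9a, Subread 2.0.1 with featureCounts and GRCh38 were used. The strand setting, the handling of duplicated reads and the annotation are not given in the sources used here. Counts of genes that overlap others on either strand are therefore uncertain. The overlap is given above for some members only. It was not given for BUB1B and CENPA (10.2% and 7.1% of exons under genes of the same strand), or for CCNA2 and CDC25C (9.2% and 8.8% under an antisense gene), among others. Counts of 1 molecule are not independent, so depth beyond the number of molecules adds little precision.

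The CAL27 DOX columns are numbered 4 to 6 and carry no replicate number of the labels, so they were assigned to the group only. Counts were analysed in R 4.3.3 with edgeR 4.0.16 (filterByExpr with minimums of 10 counts and 15 in total, TMM, robust glmQLFit, two-sided glmQLFTest), each line alone, and with the interaction of line and DOX over all 12 libraries. A call needed an adjusted p under 0.05, by Benjamini-Hochberg over the genes tested. CPM values are TMM-normalized within a line, except the marker sums, which are scaled to the library totals alone. No statement in the sources says that the samples were grown independently of each other, so p-values measure the spread between these samples. In 12 pairs of replicates the counts differed by 6.35 to 119 times the variance of independent counts, and each library was used as 1 replicate. All 54 members passed the filter on low counts in both lines.

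The members, roles and other lists were chosen with earlier results of these data known. Values in every library are given for the 5 called members with the largest change in each direction and line, those called alike in both lines, the 5 with the largest difference, and BUB1, CDK1, CCNB1, PLK1, AURKB, NDC80, TOP2A, MKI67 and FOXM1. Of genes outside the list, MUC1 and those of the pathway lists past a fold change of 2 are named. BUB3 was given in full after its values were seen. Positions and overlaps come from GENCODE v44 and promoters from RefSeq. Alternatives were DESeq2 1.42.0, its size factors or library totals, no filter, other thresholds, counts divided by counts per molecule, 1 fit over 12 libraries, a block on the replicate number and leaving out each library.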

Additional observations from a re-analysis of the deposited data

Results flagged for a closer look

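For 47 of the 54 genes the response to DOX differed between the lines by the interaction test in edgeR (adjusted p under 0.05 over all genes tested). Each value here is the log2 fold change in HSC3 cells minus that in CAL27 cells, and all were negative. For the spindle checkpoint they were -0.44 (BUB1), -0.51 (BUB1B), -0.60 (BUB3), -0.51 (TTK) and -0.77 (MAD2L1), and for kinases, cyclins and entry factors -0.46 (AURKA), -0.54 (PLK1), -0.41 (CCNA2), -0.44 (CCNB1), -0.51 (CCNB2) and -0.88 (CDCA3). For the chromosomal passenger complex they were -0.57 (AURKB), -0.42 (BIRC5) and -0.87 (CDCA8), and for the APC/C and sister separation -0.62 (CDC20), -0.41 (UBE2C), -0.43 (PTTG1) and -0.62 (ESPL1). At the centromere and kinetochore they were -0.53 (CENPA), -0.51 (CENPE), -0.40 (CENPF), -0.49 (NDC80), -1.04 (SPC24), -0.54 (SPC25) and -0.59 (KNL1). For kinesins they were -0.70 (KIF11), -0.42 (KIF20A), -0.53 (KIF20B), -0.66 (KIF23), -0.44 (KIF2C), -0.58 (KIF4A), -0.67 (KIF14), -0.85 (KIF15) and -0.36 (KIF18A), and for spindle microtubule proteins -0.65 (TPX2), -0.61 (ASPM), -0.36 (HMMR), -0.48 (DLGAP5) and -0.56 (GTSE1). They were -0.48 (ECT2) and -0.81 (ANLN) for cytokinesis, -0.55 (NCAPG), -0.59 (NCAPH), -0.28 (SMC4), -0.43 (TOP2A) and -0.58 (MKI67) for condensin and chromosome structure, and -0.69 for FOXM1. With 3 libraries in a group, no sample was tested as an outlier.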

How the results depend on the processing

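No called gene changed direction under any alternative run, and 23 of 39 calls in CAL27 cells, 23 of 33 in HSC3 cells and 43 of 47 differences were kept at the same threshold under each of the 12, 13 and 17 other settings run for them. With a fold change above 2 required, 0 genes were called higher and 0 lower in CAL27 cells, 1 lower in HSC3 cells and 1 in the difference between the lines. The 2 genes lower in CAL27 cells became 1 at an adjusted p under 0.01 and 0 in 1 fit over all 12 libraries, and 1 to 2 when each library was left out. On leaving out each library the median log2 fold change in CAL27 cells ran from 0.152 to 0.201, the genes called higher there from 31 to 41, those called lower in HSC3 cells from 25 to 46 and the differences from 43 to 50. Of all genes in those fits, 3537 to 4660 were called higher in CAL27 cells and 2049 to 3601 lower in HSC3 cells. Differences called lower in HSC3 cells ran from 1947 to 3233 of all genes. The 1 fit over 12 libraries called 25 genes higher in CAL27 cells, and 2746 of all 20694 genes tested. With the replicate block, 32 genes were called lower in HSC3 cells with a median of -0.301, and 2523 of all 18021 genes tested. Deviations of same-numbered HSC3 libraries from their group means correlated with r of -0.21, 0.35 and -0.34 over 9364 genes. For differently numbered libraries r ran from -0.44 to 0.48. Deviations from a group mean depend on each other, so these values cannot tell whether replicates were paired. The labels give the HSC3 libraries only a number. No fit with a block was possible for CAL27 cells because their DOX columns carry no replicate number. Among genes that were not called, leaving out a library turned the sign of INCENP (-0.049 to 0.003) and SPC24 (-0.071 to 0.005) in CAL27 cells and of NUSAP1 (-0.644 to 0.121), PRC1 (-0.309 to 0.351) and SMC4 (-0.014 to 0.125) in HSC3 cells, and that of the difference of CDC25C (-0.334 to 0.032). PRC1 turned also with counts divided by counts per molecule (0.022) and with the replicate block (0.004). The cause was not tested. NUSAP1 and PRC1 had at most 0.718 and 1.55 CPM in any library, and 86.8% and 57.6% of their exons lay under other genes of the same strand.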
